A study of Mus musculus with 12 samples.

Results

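Wnt/β-catenin signalling divides the liver lobule into zones, and 10 genes that depend on it in hepatocytes around the central vein were followed here in the livers of 12 mice. The genes were Axin2, Nkd1, Rnf43, Znrf3, Lgr5, Tbx3, Glul, Oat, Rhbg and Slc1a2. They were chosen by name, as rows of the deposited count table whose Ensembl identifier maps to these symbols. The choice was made with earlier results of these data known. The shares over all genes given below are therefore no independent test of this set. All 10 were found among the 55414 genes of the table, and all 10 were among the 13857 genes with enough reads to be tested. RNA sequencing (RNAseq) was performed on whole liver of female C57BL/6J mice, which the study used at 8 to 12 weeks of age, with 3 mice in each of 4 groups. NaCl/PBS mice received saline (NaCl) i.p. and, 6 h later, PBS. NaCl/DEX mice received saline and then 10 mg/kg dexamethasone (DEX), a synthetic agonist of the glucocorticoid receptor (GR). FeSO4/PBS mice received 300 mg/kg FeSO4, a dose that causes lethal shock in this model of acute iron overload, and then PBS, whereas FeSO4/DEX mice received 300 mg/kg FeSO4 and then 10 mg/kg DEX. All livers were taken 2 h after the second injection, and no group carried a transgene or a deletion. The design asks what FeSO4 does to the liver, what DEX does to it, and whether DEX has the same effect after FeSO4.

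Around the central vein, endothelial cells secrete Wnt ligands and R-spondins, which stabilise β-catenin in the adjacent hepatocytes. β-catenin then acts with TCF/LEF transcription factors on its target genes. Some of these targets are brakes on the pathway itself: Axin2 is a scaffold of the complex that degrades β-catenin, Nkd1 binds Dishevelled, and Rnf43 and Znrf3 are related ubiquitin ligases that remove Frizzled receptors from the cell surface. Lgr5 is a receptor for R-spondins, which protect Frizzled from Rnf43 and Znrf3. Tbx3 is a transcription factor made in pericentral hepatocytes. Glul (glutamine synthetase), Oat (ornithine aminotransferase), Rhbg (an ammonia transporter) and Slc1a2 (a glutamate transporter) equip the same cells to take up glutamate and ammonia and to release glutamine. DEX is known to act through GR, which can bind an inverted repeat of the word AGAACA.

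The sequence upstream of 4 of the genes is shown because these genes differed in their response: Axin2 and Rnf43 were lower after both FeSO4 and DEX, Slc1a2 was lower after FeSO4, and Glul was higher after both. Each run holds the 250 bases before the annotated start in RefSeq, on build GRCm38.p6, written 5′ to 3′ on the strand of the gene, and for Rnf43 the first of 2 annotated starts was taken. Capitals mark matches to the words searched.

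Axin2, chr11:108920099-108920348, plus strand: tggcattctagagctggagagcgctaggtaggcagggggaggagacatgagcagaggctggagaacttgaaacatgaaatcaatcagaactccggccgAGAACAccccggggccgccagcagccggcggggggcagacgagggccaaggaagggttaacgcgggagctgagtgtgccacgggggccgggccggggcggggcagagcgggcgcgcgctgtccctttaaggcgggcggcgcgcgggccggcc

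Rnf43, chr11:87662837-87663086, plus strand: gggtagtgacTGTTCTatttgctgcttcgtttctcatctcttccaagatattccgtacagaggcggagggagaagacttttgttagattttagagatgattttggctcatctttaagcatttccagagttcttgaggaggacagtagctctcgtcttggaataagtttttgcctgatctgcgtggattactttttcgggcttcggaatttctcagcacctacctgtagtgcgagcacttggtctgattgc

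Slc1a2, chr2:102706188-102706437, plus strand: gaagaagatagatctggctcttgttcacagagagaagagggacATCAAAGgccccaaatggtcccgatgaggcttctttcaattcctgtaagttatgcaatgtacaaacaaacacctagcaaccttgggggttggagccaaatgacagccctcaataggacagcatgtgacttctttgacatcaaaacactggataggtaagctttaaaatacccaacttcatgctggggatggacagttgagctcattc

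Glul, chr1:153899679-153899928, plus strand: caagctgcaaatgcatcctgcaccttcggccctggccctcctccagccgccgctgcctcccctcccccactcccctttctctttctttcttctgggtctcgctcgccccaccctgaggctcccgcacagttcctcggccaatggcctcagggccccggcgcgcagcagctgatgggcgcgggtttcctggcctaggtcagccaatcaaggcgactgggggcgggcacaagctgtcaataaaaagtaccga

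Promoters of 6 of the 10 genes were present in the RefSeq table, which does not list Lgr5, Znrf3, Tbx3 and Rhbg. On both strands of the window from 250 bases before to 50 bases after the start, 4 TCF/LEF words were searched, namely CTTTGAA with its variant CTTTGAT, and also CTTTGTA with its variant CTTTGTT. Of the 6 genes, Slc1a2 alone held one, CTTTGAT on the opposite strand, with the first base at -207. At least 1 of these words was present in 16.9% of the 32851 promoters in the table. The GR word AGAACA was found in Axin2 with the first base at -152 and in Rnf43 at -240, and it was present in 19.0% of all promoters. The full palindromic response element, AGAACA followed by any 3 bases and its reverse complement, was found in none of the 6 genes and in 3 promoters of the table. These matches describe the letters in these windows only.

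Library totals ranged from 16335651 to 23827340 counts. In the values below, a normalized count is the read count scaled for library size and composition (TMM) to the mean library. The fold change (LFC) is on the log2 scale with its standard error (SE), and FDR is the Benjamini-Hochberg adjusted p over all 13857 genes from the quasi-likelihood test of edgeR. A gene was called when its FDR was 0.05 or less. The marker genes of hepatocytes were present in every liver, whereas at least 5 of 6 pancreatic acinar markers had no count in any mouse of a given group. FeSO4/PBS mouse 1 differed more from its group than any other mouse did (chi-square per gene of 81.4 and 64.9 against the others of its group, whereas all other pairs within a group lay between 16.8 and 33.9). Without this mouse the counts of called genes among the 10 were 1 higher and 5 lower after FeSO4, as with it. Gene positions are given on build GRCm39 from GENCODE vM39. All 10 genes overlap another annotated gene, 8 of them on the opposite strand, and the strand setting of the deposited counts is not given in the sources used here. Nothing in the labels assigns the mice to litters, cages or sequencing runs.

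FeSO4 alone lowered 5 of the 10 genes and raised 1. The R-spondin receptor Lgr5 fell most, followed by Tbx3 and Rnf43, which kept 19.1% and 19.2% of their NaCl/PBS levels, and then Axin2 and Slc1a2. Glul rose to 151% of its NaCl/PBS level, and Nkd1, Znrf3, Oat and Rhbg did not pass the test. Across all tested genes, 27.3% were called lower and 27.2% higher in this comparison, so that 6 called genes of 10 stand beside 54.5% called in either direction. The 5 lower and 1 higher genes were also those whose groups did not overlap in any mouse, as did 31.0% of all genes in the lower and 29.0% in the higher direction. The median LFC of the 10 genes was -0.55, compared with -0.02 over all genes. In whole liver, fewer pericentral cells and less RNA per cell cannot be told apart.

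DEX in NaCl mice lowered 4 of the genes, Tbx3, Lgr5, Rnf43 and Axin2, and raised Glul. In this comparison 7.15% of all genes were called lower and 6.50% higher, so that 5 of 10 stand beside 13.7% in either direction, and the median LFC was -0.42 for the 10 genes and -0.02 over all genes. Groups did not overlap for 5 genes in the lower direction, with Nkd1 as the fifth, and for Glul in the higher direction; across all genes these shares were 20.3% and 17.6%. Both comparisons use the same 3 NaCl/PBS mice, so that their values are not independent.

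**Figure D1:**
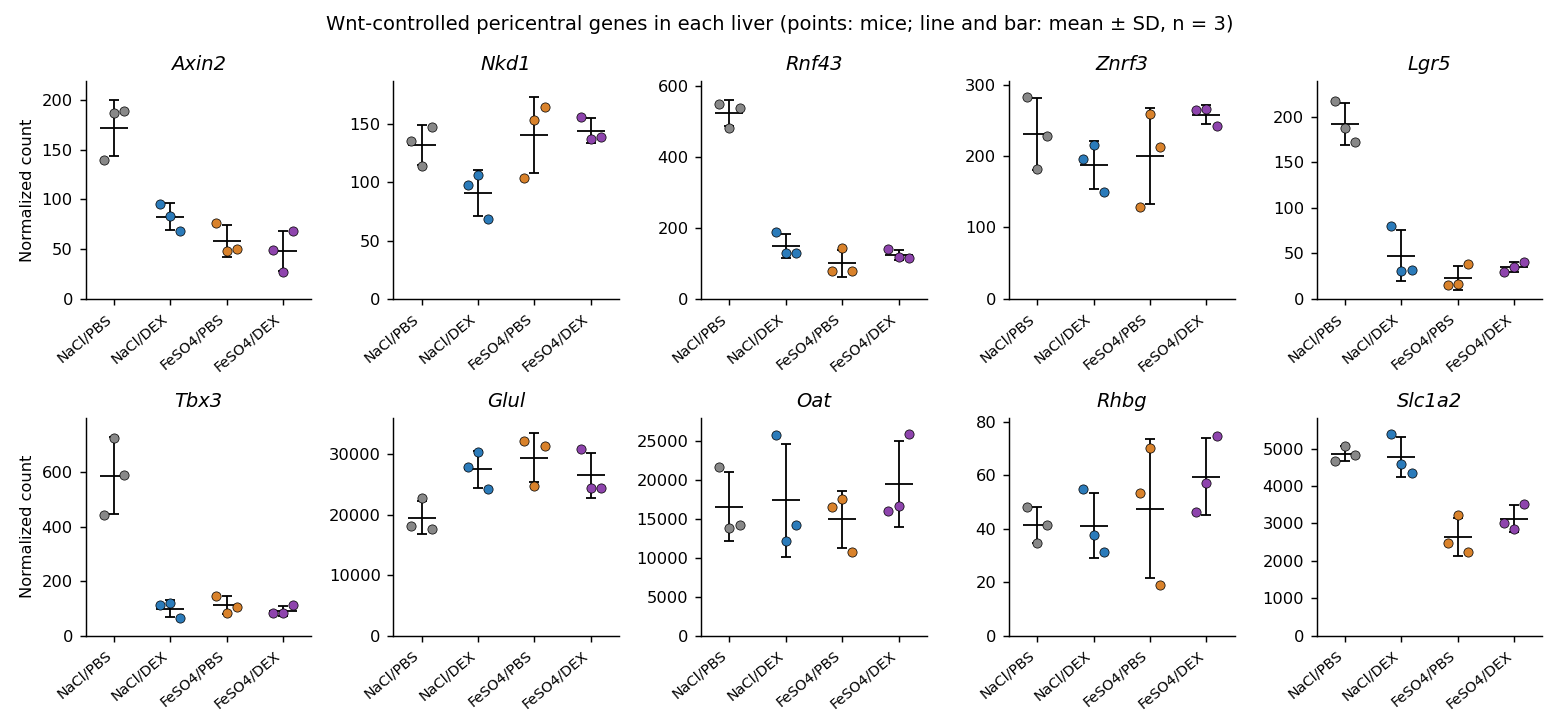
Normalized count (y axis, from 0) of each of the 10 genes in the 4 groups (x axis), with 1 point per mouse and a line and bar for the mean ± SD of 3 mice. Axin2, Rnf43, Lgr5 and Tbx3 were high in the NaCl/PBS mice only, Slc1a2 was low in both FeSO4 groups, and the groups of Oat and Rhbg overlapped.

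Among the brakes on Wnt signalling, Rnf43 (ENSMUSG00000034177, chr11:87553548-87626377, plus strand) had the largest loss. The normalized count was 549, 482 and 537 in NaCl/PBS mice and 77.6, 144 and 77.8 in FeSO4/PBS mice. It was 188, 128 and 129.9 in NaCl/DEX mice and 140.2, 117 and 115 in FeSO4/DEX mice. Every NaCl/PBS mouse lay above all 9 other mice. The LFC was -2.38 (SE 0.23, FDR = 1.5e-06) for FeSO4 and -1.82 (SE 0.22, FDR = 7.9e-05) for DEX in NaCl mice. After FeSO4, DEX changed it by 0.31 (95% interval -0.19 to 0.81), which did not pass the test.

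Axin2 (ENSMUSG00000000142, chr11:108811169-108841609, plus strand), a widely used reporter gene of the pathway, followed with smaller values. NaCl/PBS mice had 139.5, 187 and 189 normalized counts, NaCl/DEX mice 95.5, 83.7 and 68.5, FeSO4/PBS mice 76.6, 47.8 and 49.7, and FeSO4/DEX mice 49.3, 27.2 and 67.8. The NaCl/PBS mice were again the highest 3 of 12, and the other groups partly overlapped. The LFC was -1.56 for FeSO4 (SE 0.28, FDR = 0.00037) and -1.05 for DEX in NaCl mice (SE 0.27, FDR = 0.019). The DEX call was lost without NaCl/PBS mouse 2 (LFC -0.98, FDR = 0.062), NaCl/PBS mouse 3 (-0.97, FDR = 0.078), NaCl/DEX mouse 2 (-1.06, FDR = 0.057) or NaCl/DEX mouse 3 (-0.94, FDR = 0.084). FeSO4/DEX mice were lower than NaCl/DEX mice by an LFC of -0.77 with an FDR of 0.049, which was over 0.05 without any of 8 of the 12 mice (FDR up to 0.14).

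Znrf3 (ENSMUSG00000041961, chr11:5226324-5394939, minus strand) and Nkd1 (ENSMUSG00000031661, chr8:89247890-89324577, plus strand), the remaining brakes, did not pass the test for FeSO4 or for DEX in NaCl mice. Znrf3 stood at 283, 182 and 228 normalized counts in NaCl/PBS mice and at 128, 259 and 213 in FeSO4/PBS mice (LFC -0.21, 95% interval -0.70 to 0.28). In NaCl/DEX mice it stood at 195, 215 and 150.0 (LFC -0.31, 95% interval -0.80 to 0.19), and in FeSO4/DEX mice at 264, 266 and 243. The first 3 groups overlapped, whereas the FeSO4/DEX mice were all above the NaCl/DEX mice (LFC 0.46, FDR = 0.12). Nkd1 had 135, 114 and 147 normalized counts in NaCl/PBS mice, 97.7, 106 and 68.5 in NaCl/DEX mice, 104, 154 and 165 in FeSO4/PBS mice and 157, 137 and 139 in FeSO4/DEX mice. All NaCl/DEX mice lay below all NaCl/PBS mice (LFC -0.54, SE 0.21, FDR = 0.11), and FeSO4/PBS mouse 1 lay within the NaCl/DEX range. Nkd1 was called in a single comparison, FeSO4/DEX against NaCl/DEX, with an LFC of 0.67 (SE 0.21, FDR = 0.020), and this call was lost without NaCl/DEX mouse 3 (FDR = 0.089) or FeSO4/DEX mouse 1 (FDR = 0.065).

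Rnf43 and Znrf3 encode related ligases, and the ratio between them was lower in every treated mouse than in any NaCl/PBS mouse. Per kilobase of exon, the ratio of Rnf43 to Znrf3 was 2.37, 3.23 and 2.88 in the NaCl/PBS mice. It was 1.17, 0.725 and 1.06 in NaCl/DEX mice, 0.740, 0.680 and 0.446 in FeSO4/PBS mice and 0.649, 0.536 and 0.581 in FeSO4/DEX mice. The log2 ratio differed by -2.21 between FeSO4/PBS and NaCl/PBS mice and by -1.54 between NaCl/DEX and NaCl/PBS mice. With 3 mice against 3, the two-sided exact permutation test gave p = 0.1 for both, which is the smallest value this design allows, and p = 0.13 after adjustment over the 4 comparisons made. FeSO4/DEX and FeSO4/PBS mice differed by -0.05 (exact permutation p = 0.9).

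**Figure D2:**
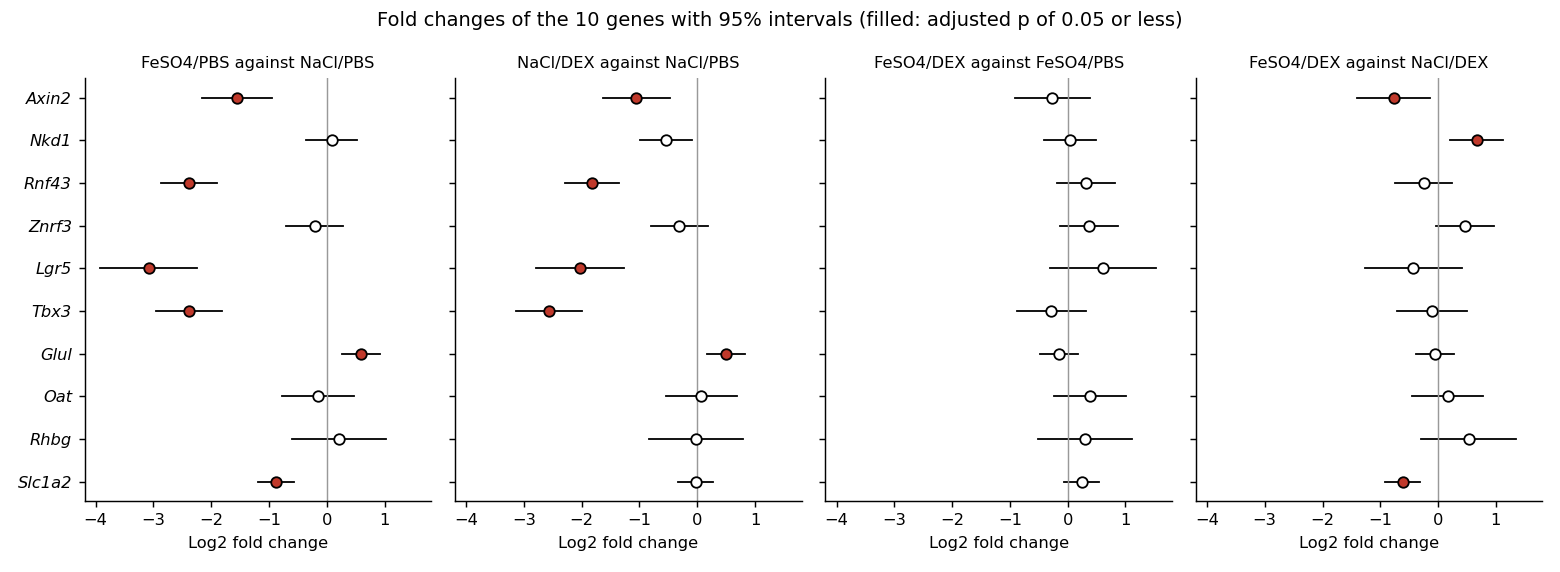
LFC (x axis, log2) of the 10 genes (y axis) in the 4 comparisons between groups, with the 95% interval as a line. Filled points had an FDR of 0.05 or less; Lgr5, Rnf43, Tbx3 and Axin2 were lower in the first 2 panels, and no point was filled for DEX after FeSO4.

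Lgr5 (ENSMUSG00000020140, chr10:115286216-115423685, minus strand), the R-spondin receptor, had 217, 188 and 172 normalized counts in NaCl/PBS mice. It dropped to 15.1, 16.3 and 38.3 in FeSO4/PBS mice, and stood at 79.4, 31.0 and 31.2 in NaCl/DEX mice and 29.0, 35.3 and 40.4 in FeSO4/DEX mice. All treated mice lay below the lowest NaCl/PBS mouse, with NaCl/DEX mouse 1 the highest among them. The LFC was -3.08 (SE 0.39, FDR = 1.8e-05) for FeSO4, the largest among the 10 genes, and -2.03 (SE 0.36, FDR = 0.0015) for DEX in NaCl mice.

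Tbx3 (ENSMUSG00000018604, chr5:119806298-119822797, plus strand), the transcription factor, had the largest DEX response of the 10 genes. The NaCl/PBS mice had 444, 727 and 590.0 normalized counts and the NaCl/DEX mice 113, 120.3 and 63.4, an LFC of -2.57 (SE 0.26, FDR = 2.4e-05). FeSO4/PBS mice had 146, 83.4 and 106, an LFC of -2.39 (SE 0.26, FDR = 5.2e-06), and FeSO4/DEX mice 81.2, 81.6 and 113. The 3 treated groups overlapped each other and lay apart from the NaCl/PBS mice. Tbx3 overlaps the antisense gene Tbx3os1, which had 17 to 178 reads per library, and reads of the pair may not be fully separated.

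The genes for glutamine and ammonia handling were, with the exception of Rhbg, expressed at far higher levels than the signalling genes. As reads per kilobase of exon, scaled to library size (RPKM), the mean level in NaCl/PBS mice was 249.6 for Glul, 107 for Oat and 17.5 for Slc1a2, but 1.04 for Rhbg, compared with 4.02 for Rnf43, 3.60 for Tbx3, 1.45 for Znrf3, 1.25 for Axin2, 0.946 for Lgr5 and 0.808 for Nkd1. Glul (ENSMUSG00000026473, chr1:153775690-153785469, plus strand), which makes glutamine from glutamate and ammonia, had 18129, 22706 and 17721 normalized counts in NaCl/PBS mice. FeSO4/PBS mice had 32236, 24800.3 and 31294, NaCl/DEX mice 27835, 30429 and 24191, and FeSO4/DEX mice 30806, 24467 and 24344. All 9 treated mice were above all NaCl/PBS mice, and the treated groups overlapped. The LFC was 0.59 (SE 0.15, FDR = 0.0045) for FeSO4 and 0.49 (SE 0.15, FDR = 0.045) for DEX in NaCl mice.

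The Glul calls depended on scaling and, for DEX, on single mice. With library size alone as the scale, the median LFC of all genes was -0.34 for FeSO4 and -0.18 for DEX in NaCl mice, and Glul had an LFC of 0.27 (FDR = 0.15) and 0.34 (FDR = 0.16) on that scale. For DEX, Glul no longer passed after removal of NaCl/PBS mouse 1 (LFC 0.45, FDR = 0.15), NaCl/PBS mouse 3 (0.44, FDR = 0.16), NaCl/DEX mouse 1 (0.49, FDR = 0.10) or NaCl/DEX mouse 2 (0.42, FDR = 0.15). The summed normalized count of 8 hepatocyte markers was 1856410 to 2218780 in NaCl/PBS mice, 2198600 to 2572790 in NaCl/DEX mice and 2324350 to 2658800 in FeSO4/PBS mice, and its part in the Glul result was not tested.

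Slc1a2 (ENSMUSG00000005089, chr2:102488574-102621129, plus strand), the glutamate transporter, was lower after FeSO4 whether or not DEX followed. It had 4685, 5076 and 4831 normalized counts in NaCl/PBS mice and 5389, 4596 and 4348 in NaCl/DEX mice. FeSO4/PBS mice had 2474, 3219 and 2231, and FeSO4/DEX mice 3005, 2851 and 3533. All 6 FeSO4 mice were below all 6 NaCl mice. The LFC was -0.88 (SE 0.14, FDR = 0.00015) for FeSO4/PBS against NaCl/PBS mice and -0.61 (SE 0.14, FDR = 0.0032) for FeSO4/DEX against NaCl/DEX mice, whereas DEX in NaCl mice gave -0.03 (95% interval -0.33 to 0.28).

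Oat (ENSMUSG00000030934, chr7:132159153-132191517, minus strand), which feeds ornithine into glutamate, and the ammonia transporter Rhbg (ENSMUSG00000104445, chr3:88150181-88162043, minus strand) overlapped in all groups. Oat had 21615, 13817 and 14225 normalized counts in NaCl/PBS mice and 16511, 17508 and 10689.7 in FeSO4/PBS mice (LFC -0.15, 95% interval -0.77 to 0.46). In NaCl/DEX mice it had 25675, 12198 and 14152 (LFC 0.07, 95% interval -0.55 to 0.68), and in FeSO4/DEX mice 15954, 16659 and 25828. The coefficient of variation of Oat within a group was 24.7% to 42.0%, the highest in NaCl/DEX mice. Rhbg had 48.2, 34.6 and 41.5 normalized counts in NaCl/PBS mice, 54.7, 37.6 and 31.2 in NaCl/DEX mice, 53.4, 70.2 and 19.1 in FeSO4/PBS mice and 46.4, 57.1 and 74.9 in FeSO4/DEX mice. Rhbg had few reads, and its interval for FeSO4 was wide (LFC 0.21, 95% interval -0.60 to 1.02). Oat shares its locus with Fgfr2, which had 227 to 707 reads per library.

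When DEX followed FeSO4, none of the 10 genes was called, and none of all tested genes was (percent called 0 in either direction). At an unadjusted p under 0.05, 900 of the 13857 genes differed in this comparison, and the Wald test of DESeq2 called 0.0361% of all genes in each direction and none of the 10. The LFCs of the 10 genes lay between -0.29 for Tbx3 and 0.62 for Lgr5, and no gene separated the groups, compared with 4.45% of all genes in the higher and 4.85% in the lower direction. The test of the difference between the DEX effects (the effect after FeSO4 minus the effect in NaCl mice) called 3 of the 10 genes in the higher direction and none in the lower, beside 2.99% and 3.20% of all genes (6.18% in either direction). These were Lgr5 with a difference of 2.65 (SE 0.55, FDR = 0.011), Tbx3 with 2.28 (SE 0.38, FDR = 0.0029) and Rnf43 with 2.13 (SE 0.32, FDR = 0.0015). All 3 were already low in FeSO4/PBS mice, and they kept the call when any single mouse was left out. For Axin2 the difference was 0.79 (95% interval -0.08 to 1.66, FDR = 0.30) and for Glul -0.64 (95% interval -1.10 to -0.18, FDR = 0.098), which did not pass.

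FeSO4/DEX and NaCl/DEX mice, which both received DEX, differed in fewer of the genes. Axin2 and Slc1a2 were lower and Nkd1 was higher after FeSO4, beside 20.9% lower and 22.4% higher among all genes, so that 3 of 10 lies below the 43.3% called in either direction. Rnf43 (LFC -0.25), Lgr5 (-0.43) and Tbx3 (-0.11) did not pass the test in this comparison, with 95% intervals of -0.74 to 0.24, -1.27 to 0.41 and -0.71 to 0.49. Groups that did not overlap were found for 2 genes in each direction, beside 27.1% of all genes in the lower and 28.8% in the higher direction.

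Upstream of these targets, 41 of 55 listed Wnt pathway genes could be tested. After FeSO4, 9 were higher and 15 lower, with a median LFC of -0.08, and these 24 of 41 are a share near the 54.5% of all genes called in that comparison. DEX in NaCl mice raised 2 and lowered 6, with a median of -0.24, beside 6.50% higher and 7.15% lower among all genes, and DEX after FeSO4 changed none. The ligands of the central vein did not pass the test after FeSO4. Wnt2 had 79.1, 72.9 and 66.0 normalized counts in NaCl/PBS mice and 78.6, 53.9 and 57.4 in FeSO4/PBS mice (LFC -0.20, SE 0.27). Wnt9b had 40.3, 39.3 and 31.3 in NaCl/PBS mice, 14.1, 18.3 and 34.4 in FeSO4/PBS mice (LFC -0.75, SE 0.40, FDR = 0.125) and 17.2, 25.4 and 15.1 in NaCl/DEX mice (LFC -0.93, SE 0.40, FDR = 0.145), so that its NaCl/DEX mice lay below all NaCl/PBS mice without passing the test.

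Rspo3, the R-spondin of the liver endothelium, was at 119, 94.4 and 96.5 normalized counts in NaCl/PBS mice and at 112, 98.7 and 107 in FeSO4/PBS mice (LFC 0.03, 95% interval -0.33 to 0.40). DEX in NaCl mice gave 67.6, 75.2 and 66.5, an LFC of -0.57 (SE 0.17, FDR = 0.045), which stayed called in 2 of the 12 fits that each left out 1 mouse. These lowest values belonged to the NaCl/DEX mice alone. Summed normalized counts of 10 endothelial markers were 6784 to 7851 in NaCl/PBS, 6383 to 7756 in NaCl/DEX and 6531 to 8117 in FeSO4/PBS mice. They were 4910 to 9122 in FeSO4/DEX mice. These ranges overlapped, with none of the markers at 0. The sums hide opposite changes: 2 markers were higher and 4 lower after FeSO4, and 1 was higher and 1 lower after DEX in NaCl mice. Of the 7 tested ligands, 1 was higher and 3 were lower after FeSO4, beside 27.2% and 27.3% of all genes. These 4 of 7 are a share near the 54.5% of all genes called in either direction, and they are named after their values were seen. Wnt11 rose from a mean of 5.08 ± 5.17 (SD, n = 3) normalized counts in NaCl/PBS mice to 36.3, 88.5 and 45.9 in FeSO4/PBS mice (LFC 3.48, SE 0.68, FDR = 0.00067). Wnt5b fell with an LFC of -2.55 (SE 0.38, FDR = 7e-05) and Wnt9a with one of -3.11 (SE 0.67, FDR = 0.0014), the latter from at most 24.3 normalized counts. Wnt5a was lower with an LFC of -1.21 (FDR = 0.044, called in 2 of the 12 fits that left out 1 mouse), and it was also the 1 ligand called after DEX in NaCl mice (LFC -1.79, FDR = 0.027, called in 6 of the 12 fits).

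Receptors moved in both directions, whereas the nuclear effectors called after FeSO4 alone or after DEX in NaCl mice were lower. Among 10 tested receptors, 4 were higher and 5 lower after FeSO4, beside 27.2% higher and 27.3% lower among all genes. Frizzled receptors Fzd4 (LFC -1.06, FDR = 2e-04) and Fzd8 (-1.02, FDR = 0.0017) and the R-spondin receptor Lgr4 (-0.59, FDR = 0.00099) were lower. Another Frizzled receptor, Fzd6, named after its values were seen, went the other way. It had 103, 106 and 101 normalized counts in NaCl/PBS mice and 230, 273 and 274 in FeSO4/PBS mice. The co-receptor Lrp6 was higher after FeSO4 (0.63, FDR = 0.0035) and after DEX in NaCl mice, where it went from 1753, 1724 and 1943 to 4573, 3794 and 4182 normalized counts (LFC 1.21, FDR = 0.00013). With library size alone, the FeSO4 call of Lrp6 was lost. Of 7 tested nuclear effectors, 4 were lower and none higher after FeSO4, beside 27.3% lower among all genes and 8260 genes with an unadjusted p under 0.05 in the edgeR test. The largest losses, named after their values were seen, were those of the β-catenin cofactors Bcl9l (LFC -2.14, SE 0.24, FDR = 5.3e-06) and Bcl9 (LFC -1.71, SE 0.23, FDR = 3.2e-05), and the TCF factor Tcf7 was lower as well (-0.68, FDR = 0.012), a call lost without FeSO4/PBS mouse 2. Ctnnb1, which encodes β-catenin, had 4265, 3968 and 4141 normalized counts in NaCl/PBS mice and 3168, 2328 and 2969 in FeSO4/PBS mice (LFC -0.55, SE 0.12, FDR = 0.0014). All FeSO4 mice were below all NaCl mice, and DEX in NaCl mice left it at 4077, 3996 and 4150.1 (LFC -0.02, 95% interval -0.27 to 0.23). Tcf7l2, the main TCF factor of hepatocytes, was lower after DEX in NaCl mice (LFC -0.53, FDR = 0.047, called in 2 of 12 fits with 1 mouse left out) and did not pass the test after FeSO4 (0.28, FDR = 0.16). It was higher in FeSO4/DEX than in NaCl/DEX mice (LFC 1.23, FDR = 5e-05), and this call held in all 12 such fits. In that comparison 1 nuclear effector was higher and 3 were lower, beside 22.4% and 20.9% of all genes. Apc, a scaffold of the degradation complex, was at -0.08 (SE 0.11) and -0.02 (SE 0.11). Other genes of that complex did change. Of its 7 listed and tested genes, 3 were higher and 2 lower after FeSO4, beside 27.2% and 27.3% of all genes. After DEX in NaCl mice 0 were higher and 1 was lower, beside 6.50% and 7.15%.

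**Figure D3:**
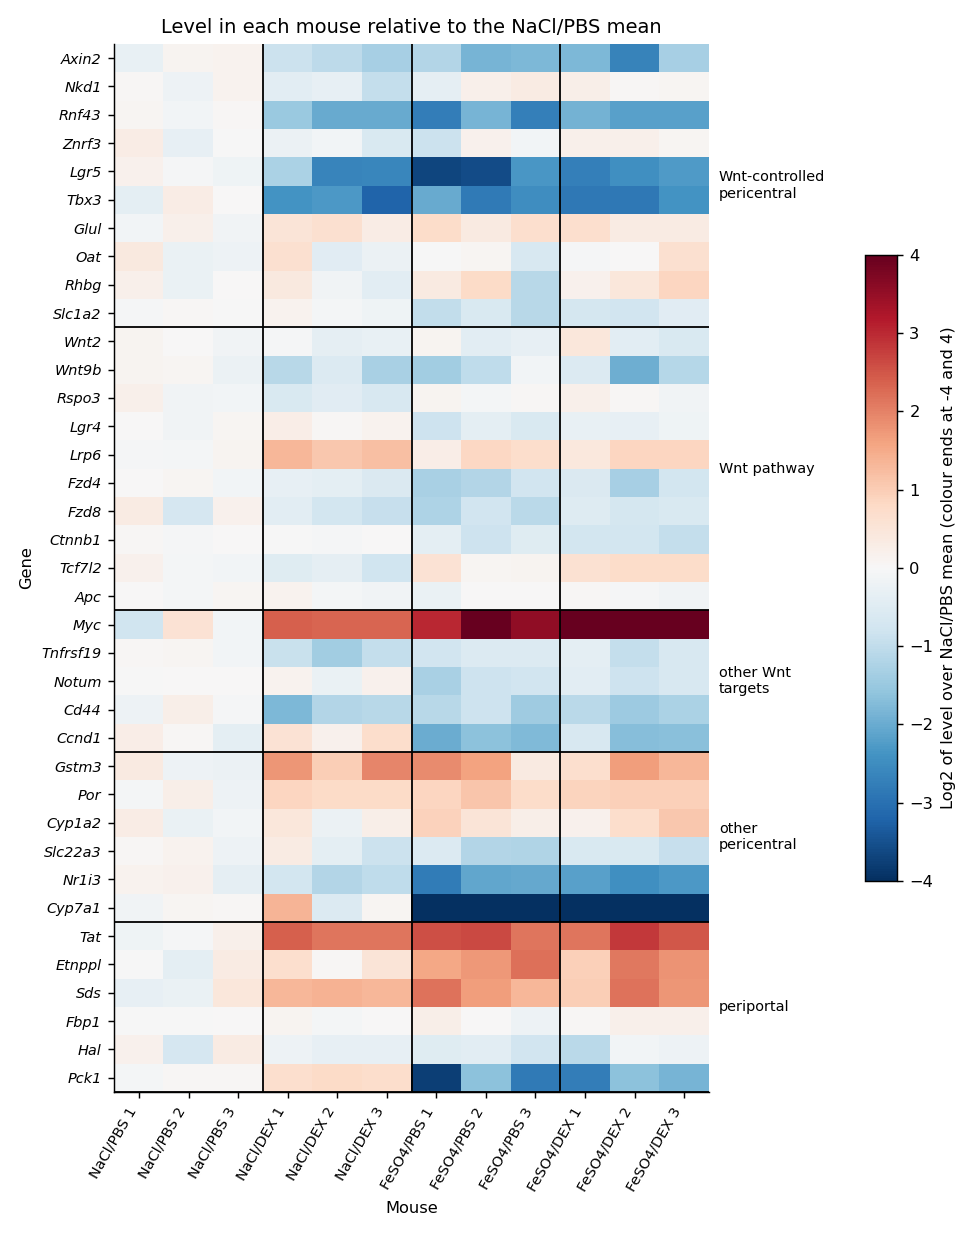
Log2 of the normalized count of each gene (rows) in each mouse (columns) over the NaCl/PBS mean, from blue (lower) to red (higher), for the 10 genes and the named genes of the pathway and zonation lists. The colour ends at -4 and 4, which cuts off Myc and Cyp7a1; Rnf43, Lgr5 and Tbx3 were blue in all treated mice, and Glul was pale red in the same mice.

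Other target genes of the pathway outside the pericentral set also split. Of 9 listed, 5 could be tested. After FeSO4 4 were lower and Myc was higher, beside 27.3% lower and 27.2% higher among all genes. DEX in NaCl mice lowered 2 and raised Myc, beside 7.15% lower and 6.50% higher among all genes. The secreted Wnt deacylase Notum was at 796, 814 and 819 normalized counts in NaCl/PBS mice and at 329, 457 and 481 in FeSO4/PBS mice (LFC -0.94, FDR = 2e-04), while DEX in NaCl mice gave an LFC of 0.04 (FDR = 0.91). Ccnd1, which encodes cyclin D1, was lower after FeSO4 (LFC -1.79, FDR = 6e-05), as were the adhesion receptor Cd44 (-1.10, FDR = 0.00055) and the TNF receptor family member Tnfrsf19 (-0.61, FDR = 0.020). The Tnfrsf19 call was lost without NaCl/PBS mouse 1, NaCl/PBS mouse 2 or FeSO4/PBS mouse 1. Cd44 and Tnfrsf19 were also lower after DEX in NaCl mice, with LFCs of -1.32 (FDR = 0.00075) and -1.07 (FDR = 0.0032). Myc, a growth regulator with many inputs, rose after FeSO4 (LFC 3.58, FDR = 6.9e-07) and after DEX (2.37, FDR = 0.00013). Sp5, a TCF target named after its values were seen, was too low to test, with 8.63, 33.7 and 49.1 normalized counts in NaCl/PBS mice and at most 5.64 in any treated mouse.

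Pericentral hepatocyte genes with other functions, mostly in drug and bile acid metabolism, moved in both directions. All 20 listed could be tested, and after FeSO4 4 were higher and 4 lower (median LFC -0.02), beside 27.2% and 27.3% of all genes. DEX in NaCl mice raised 4 and lowered 2 (median 0.04), beside 6.50% and 7.15%. Cytochrome P450 reductase (Por) was higher after FeSO4 (LFC 0.90, FDR = 7.3e-05) and after DEX (0.80, FDR = 0.0011), as was the glutathione transferase Gstm3 (1.43, FDR = 0.0037, and 1.62, FDR = 0.0074). The nuclear receptor Nr1i3 (CAR) was lower after both (LFC -2.28, FDR = 8.1e-07, and -0.96, FDR = 0.0043). Cyp7a1, the rate-limiting enzyme of bile acid synthesis, fell from 6284, 7359.9 and 7236 normalized counts in NaCl/PBS mice to 104, 153 and 65.0 in FeSO4/PBS mice (LFC -6.01, SE 0.49, FDR = 3.6e-07). The organic cation transporter Slc22a3 was lower after FeSO4 (-0.94, FDR = 0.013), and Cyp1a2, a drug-metabolising P450, did not pass (0.58, FDR = 0.057).

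Of the genes of the opposite, periportal zone, 17 were listed and tested, and 10 were higher and 1 lower after FeSO4 (median LFC 0.52), beside 27.2% higher and 27.3% lower among all genes. After DEX in NaCl mice 3 were higher (median 0.12), beside 6.50% of all genes, with the other 14 not passing the test. Tyrosine aminotransferase (Tat), a classical GR target, rose from 17656, 19125 and 22702 normalized counts to 119068, 124474 and 87754 after FeSO4 (LFC 2.48, FDR = 2.5e-07) and to 103192, 87816 and 87952 after DEX (2.23, FDR = 5.3e-06). Sds, which degrades serine, was higher after both (1.77, FDR = 0.00016, and 1.34, FDR = 0.0058), and Etnppl, a phosphoethanolamine lyase, was higher after FeSO4 (1.85, FDR = 7.4e-05). The gluconeogenic gene Pck1 was the 1 lower gene, with an LFC of -2.49 (FDR = 0.00016). Fbp1, also gluconeogenic (0.03, FDR = 0.87), and the histidine-degrading Hal (-0.55, FDR = 0.075) did not pass. After DEX in FeSO4 mice no gene of these lists was called.

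**Figure D4:**
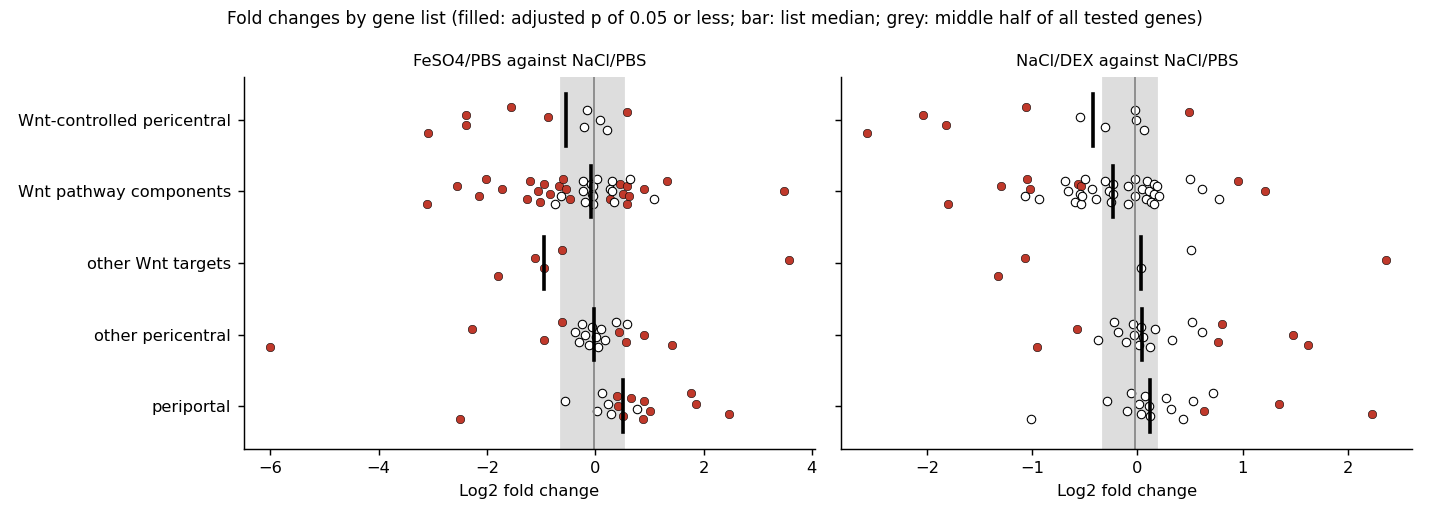
LFC (x axis, log2) of every tested gene of 5 lists (y axis) for FeSO4 and for DEX in NaCl mice. Filled points had an FDR of 0.05 or less, black bars are list medians, and the grey band and line are the interquartile range and median of all tested genes; medians for FeSO4 ran from -0.94 for other Wnt targets to 0.52 for periportal genes.

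Markers of liver cells also differed between the groups. The counts of called markers after FeSO4 stand beside 27.2% higher and 27.3% lower among all genes. Those after DEX in NaCl mice stand beside 6.50% and 7.15%. Several counts, such as 2 of 8 stellate cell markers higher after FeSO4, are near these shares. Of 8 hepatocyte markers, 3 were higher and 0 lower after FeSO4. After FeSO4, 7 of 8 macrophage markers were lower, with summed normalized counts of 7818 to 9138 in NaCl/PBS and 4061 to 4827 in FeSO4/PBS mice. Of 7 tested neutrophil markers 6 were higher, with sums of 119 to 304 and 893 to 1103. Cholangiocyte markers, which belong to the portal side, summed to 534 to 686 in NaCl/PBS and 1068 to 1377 in FeSO4/PBS mice, with 2 of 5 tested markers higher. Stellate cell markers summed to 5404 to 5533 and 5499 to 7822 (2 of 8 higher, 1 lower), and endothelial markers had 2 of 10 higher and 4 lower. Of the lymphocyte markers 1 of 4 tested was lower, and of the mesothelial markers 1 of 2. No marker of these lists was at 0 in every mouse of both groups. After DEX in NaCl mice, 2 of 8 hepatocyte markers were higher, 1 of 10 endothelial markers was higher and 1 lower, and 1 of 8 stellate cell, 1 of 7 neutrophil and 1 of 5 cholangiocyte markers were lower. No macrophage, lymphocyte or mesothelial marker was called by edgeR in that comparison, in which 3718 of all genes had an unadjusted p under 0.05. The part of these cells in the values of the 10 genes was not tested.

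Over the 12 livers, the genes whose log2 CPM (counts scaled to library size) followed Axin2 most closely, among 8057 genes with an average of at least 3 on that scale, were Cacfd1 (Pearson r = 0.95), Mpeg1 (0.93), Sin3a (0.93), Ptp4a3 (0.93) and Btrc (0.93), the last encoding a ubiquitin ligase subunit that recognises β-catenin. For Glul they were Stt3b (0.98), Slc35b1 (0.94), Ppp6c (0.93), Nop2 (0.92) and Pisd (0.92). Within groups, with the group means removed, Nkd1 and Znrf3 varied together (Pearson r = 0.84 over the 12 mice), which include FeSO4/PBS mouse 1 with the lowest Znrf3 count. These are descriptions over mice that share the group differences, and they carry no test.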

How the data were processed

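RNA from 12 livers was prepared by the authors with a stranded mRNA kit, sequenced as single-end reads and aligned with STAR (version 2.7.10b) to mm39, and the counts per gene were deposited unnormalized. From these counts, genes with enough reads in the groups were kept (filterByExpr), scaled by TMM and fitted in edgeR (version 4.0.16, R 4.3.3) as 1 model of 4 group means with the quasi-likelihood test. Rates of false discovery were controlled by Benjamini-Hochberg over all 13857 tested genes, and the difference of the DEX effects was tested as a contrast of the same model. The procedure was tested on simulated data, in which few genes were changed, as many up as down. No shift in composition between groups was built in, so the simulation cannot bear on calls that depend on scaling. DESeq2 (version 1.42.0), other scalings and filters, a replicate block and leaving out each mouse were alternatives. Replicates are separate mice, with 3 in each group. The p-values of edgeR use a spread per gene that is estimated over the 4 groups together and drawn toward that of other genes. They do not measure the spread within any single group.

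The 10 genes and all lists were chosen with earlier results of these data known. Named in addition were fixed pathway genes and, in each zonation or target list, the 3 genes with the largest and the 3 with the smallest LFC for FeSO4 among those with a mean normalized count of at least 100 in the higher group. Gene positions and exon lengths came from GENCODE vM39. Promoter sequences came from RefSeq on GRCm38.p6, and 175 of 175 list genes were matched by symbol. Library totals of 16335651 to 23827340 counts limit precision mainly for genes with few reads, such as Rhbg and Lgr5.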

Additional observations from a re-analysis of the deposited data

Results flagged for a closer look

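The DEX effect differed between FeSO4 and NaCl mice, by the contrast of the DEX effects in edgeR with adjustment over all genes, for 9 of the genes described above. Each value is the LFC of DEX after FeSO4 minus that in NaCl mice. Among the 10 pericentral genes, Lgr5 differed by 2.65 (adjusted p = 0.011), Tbx3 by 2.28 (adjusted p = 0.0029) and Rnf43 by 2.13 (adjusted p = 0.0015). The co-receptor Lrp6 differed by -1.11 (adjusted p = 0.0082) and the periportal enzyme Tat by -2.20 (adjusted p = 0.00025). These 5 kept the call in all 12 fits that left out 1 mouse. The other 4 calls were lost in some of these fits. Tcf7l2 differed by 0.95 (adjusted p = 0.026) and Por by -0.77 (adjusted p = 0.026), each called in 5 of the 12 fits. Cd44 differed by 1.19 (adjusted p = 0.034) and was called in 4 of them, and Gstm3 differed by -1.77 (adjusted p = 0.049) and was called in 3. All 9 differences use the same 12 mice. Across all tested genes, 6.18% were called in this contrast. By list, the calls were 3 of the 10 pericentral genes and, of 41 tested pathway genes, 1 higher and 1 lower. They were 1 of 5 tested other Wnt target genes, 3 of 20 other pericentral genes, not all of them named here, and 1 of 17 periportal genes. Tat, Por, Gstm3 and Cd44 were named for the size of their LFC for FeSO4, and this contrast subtracts that same LFC. Their choice alone thus moves the difference down for Tat, Por and Gstm3 and up for Cd44. Their calls are therefore no independent result.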

How the results depend on the processing

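The FeSO4 calls of Rnf43, Lgr5, Tbx3, Axin2 and Slc1a2, and the differences of the DEX effects of Rnf43, Lgr5 and Tbx3, held in every alternative fit and with each mouse left out. Under a minimum LFC of 1, which Slc1a2 does not reach, 4 genes in place of 5 were lower after FeSO4. Of 940 alternative LFCs of the 10 genes, 33 changed sign, none of them of a called gene, and their causes were not tested. The counts of called genes that moved were small. For higher genes, library size alone gave 0 for FeSO4/PBS against NaCl/PBS, 0 for NaCl/DEX against NaCl/PBS and 0 for FeSO4/DEX against NaCl/DEX, each in place of 1, and so did a minimum LFC of 1. Leaving out 1 mouse gave 0 to 1 in the last 2 comparisons. The replicate block, with the number in the labels as a term, gave 0 higher genes for NaCl/DEX against NaCl/PBS (Glul, adjusted p = 0.063), and 1 lower gene in place of 2 for FeSO4/DEX against NaCl/DEX (Axin2, adjusted p = 0.058). Same-numbered mice of different groups had correlations of -0.092 to 0.13, with 2 of 18 over 0.1 and 4 best matched by their own number. Each NaCl/PBS mouse was best matched by the NaCl/DEX mouse of its own number (r of 0.13, 0.11 and 0.052). Whether the numbers pair the mice of these groups was not tested. A fit of the compared libraries alone gave 2 higher and 1 lower for FeSO4/DEX against NaCl/DEX, a minimum LFC of 1 gave 0 lower, and leaving out 1 mouse gave 1 to 2 lower. For NaCl/DEX against NaCl/PBS, 3 to 4 genes were lower with 1 mouse left out. For the difference of the DEX effects, 1 gene was lower (Glul) with DESeq2 and 1 with no filter on low counts, in place of 0. With library size alone the sign changed for Nkd1 (-0.23) and Rhbg (-0.11) after FeSO4 and for Oat after DEX in NaCl mice (-0.089) and between the DEX groups (-0.028), and for Rhbg after DEX in NaCl mice it changed with DESeq2 (0.0089) and with its size factors in edgeR (0.0065). Leaving out 1 mouse, the LFC after FeSO4 ran from -0.035 to 0.27 for Nkd1, from -0.45 to 0.036 for Znrf3, from -0.28 to 0.090 for Oat and from -0.17 to 0.57 for Rhbg. For DEX in NaCl mice it ran from -0.33 to 0.32 for Oat, from -0.27 to 0.15 for Rhbg and from -0.12 to 0.038 for Slc1a2. For DEX after FeSO4 it ran from -0.16 to 0.16 for Nkd1 and from -0.067 to 0.68 for Rhbg. Between the DEX groups it ran from -0.67 to 0.16 for Lgr5, from -0.35 to 0.061 for Tbx3, from -0.17 to 0.026 for Glul and from -0.12 to 0.56 for Oat, and for the difference of the DEX effects from -0.060 to 0.69 for Rhbg. Of 61 calls named in other lists, 46 held in every alternative fit and 0 reversed.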
